A study of Mus musculus with 249 samples.

Results

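Gak and Dgkq are neighbouring genes on mouse chromosome 5, and each was read by 1 probe whose only gene symbol was that of the gene. They are 2 of 11508 genes measured, and their 2 probes are among 23388 on the array. The pair was chosen by its correlation between animals on these same arrays, so that relation is given below as a description and is not tested. Brain RNA came from 249 F2 mice of both sexes, whose parental strains, C57BL/6J and C3H/HeJ, both lacked ApoE; the mice were fed a Western diet between 8 and 24 weeks of age. Every animal therefore shared the ApoE null background and the diet, the animals form 1 group, and sex, genotype and batch are not given for each of them. The RNA of each animal carried Cy3 and was set against a Cy5-labelled pool, given as the RNA of all samples, with no second array of any animal. A value is the log10 of the ratio of animal to pool, so 0 is the level of the pool. The array of animal 144 was left out by the rule that defined the pair, and all values below are over the remaining animals unless stated.

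The values show levels relative to a pool. They therefore cannot show whether a gene is expressed at all, nor which of 2 genes is the more abundant. For the same reason the brain markers could not be checked as absolute levels. Array medians lay between -0.00627 and 0.0250, the SD over probes was between 0.0585 and 0.258 on the remaining arrays with a median of 0.0764, and it was 0.392 on the array of animal 144. In whole tissue, fewer cells of a type and less RNA per cell cannot be told apart.

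Gak, cyclin G-associated kinase, is a relative of auxilin that is expressed in many tissues. With the chaperone Hsc70 it strips clathrin from coated vesicles, and its kinase domain phosphorylates adaptor proteins of the coat. Dgkq, diacylglycerol kinase theta, phosphorylates diacylglycerol to phosphatidic acid, which ends one lipid signal and makes another; at nerve terminals it is known for a part in synaptic vesicle recycling. In the offspring of an intercross, genes that lie close together on a chromosome are mostly inherited together from one parental strain or the other, and a sequence difference that acts on a nearby gene is called a cis effect.

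In the RefSeq annotation of GRCm38.p6 both genes lie on the minus strand in the order Cplx1, Gak, Tmem175, Dgkq, Idua. Tmem175 was not measured under that name, so Gak and Dgkq were direct neighbours among measured genes, at places 348 and 349 of 653 on chromosome 5. In the annotation Dgkq overlaps Tmem175 and Idua, which lie on the opposite strand. The promoter windows are shown because the 2 start sites lie on the same strand with Tmem175 between them, so they are separate windows and not a shared one. Each runs from 250 bases before to 50 after the start, 300 bases in all, credited to RefSeq, and both members matched by symbol. Gak lies at chr5:108629728-108630027 and Dgkq at chr5:108660781-108661080, both minus strand and 5′ to 3′. Capitals mark every match to a searched motif on either strand.
Gak: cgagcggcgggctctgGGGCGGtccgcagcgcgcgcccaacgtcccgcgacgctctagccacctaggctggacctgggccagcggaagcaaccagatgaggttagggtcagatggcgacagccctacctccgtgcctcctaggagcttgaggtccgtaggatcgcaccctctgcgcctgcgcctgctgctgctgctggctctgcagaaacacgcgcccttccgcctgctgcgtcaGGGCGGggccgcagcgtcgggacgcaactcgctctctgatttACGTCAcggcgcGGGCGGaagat
Dgkq: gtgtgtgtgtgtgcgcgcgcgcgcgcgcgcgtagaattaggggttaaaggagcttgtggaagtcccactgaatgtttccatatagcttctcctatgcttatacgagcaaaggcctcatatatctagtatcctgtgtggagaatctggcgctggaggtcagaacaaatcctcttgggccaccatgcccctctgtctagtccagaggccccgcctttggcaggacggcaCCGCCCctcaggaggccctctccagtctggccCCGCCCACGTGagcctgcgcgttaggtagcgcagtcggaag

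The Gak window held 34 CpG dinucleotides with a GC content of 68.7%, and the Dgkq window held 20 with 58.7%, against a median of 7 CpG over all promoter windows. The GC box GGGCGG occurred 3 times in the Gak window and 2 times in the Dgkq window, and 35.7% of 32851 windows held it. The cyclic AMP response motif TGACGT occurred once in the Gak window only (7.51% of windows), and the E-box CACGTG once in the Dgkq window only (7.15%), where it shares a base with a GC box. Neither window held CCAAT (37.4% of windows) or TATAAA (13.6%). These matches describe the letters of the reference strain and are not shown to be used.

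Gak had a log10 ratio of -0.704 in the lowest animal, a median of -0.000407 and 0.360 in the highest animal, with a mean of -0.0177 ± 0.151 (SD, n = all animals but 144). Dgkq ran from -0.306 through a median of 0.0161 to 0.435, with a mean of -0.00546 ± 0.129 (SD, n = all animals but 144). Both genes were therefore centred close to the pool while single animals lay far on either side of it. The spread placed Gak at rank 259 and Dgkq at rank 394 of 11508 genes by SD, and the median SD of all genes was 0.0546. Between the animals at the 5th and at the 95th percentile Gak spanned a 3.18-fold range and Dgkq a 2.60-fold range.

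Animal 336 was the highest for both genes, at 0.360 for Gak and 0.435 for Dgkq. The next highest animal reached 0.284 for Gak and 0.207 for Dgkq, so animal 336 stood well clear of the others for Dgkq. Its array also had the 4th largest spread over probes among all 249 arrays, that of animal 144 included. Animal 177, the lowest for Gak at -0.704, had -0.278 for Dgkq, and its array had the 10th largest spread among the same arrays. Animal 144, left out, had 0.313 for Gak and -0.197 for Dgkq, which puts the 2 genes on opposite sides of the pool.

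The labels give no batch, and the numbering of the animals is the one order they hold. Gak averaged -0.0297 ± 0.155 in the 124 animals with numbers up to 192 and -0.00563 ± 0.147 in the 124 animals from number 193 on (SD). Dgkq averaged -0.0122 ± 0.126 and 0.00125 ± 0.133 in the same sets of animals (SD). The means of the 2 sets differed by far less than the SD within either set, which is the spread of single animals and not of a mean. Over single animals r with the animal number was 0.0366 for Gak and 0.0152 for Dgkq. A difference between the sets was not tested.

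Together the 2 genes placed the animals in 3 bands. The plane of both levels was fitted with 3 normal components, which held 58, 129 and 61 animals, which is 23.4%, 52.0% and 24.6% of them. In the low, middle and high component Gak averaged -0.240 ± 0.0962, -0.000409 ± 0.0337 and 0.157 ± 0.0579 (SD). Dgkq averaged -0.200 ± 0.0466, 0.0102 ± 0.0423 and 0.147 ± 0.0501 (SD). The high component lay 2.49-fold above the low one for Gak and 2.22-fold for Dgkq. Since both levels made the components, these values describe the bands and are no test, and the number of 3 was chosen after the values were seen. Dgkq alone favoured 3 components over 2, with a gain in BIC over 1 component of 38.2 against 29.4, whereas Gak alone favoured 2, with a gain of 8.00 for 3 components against 16.0 for 2. Genotypes are not given, so a component is not a genotype.

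**Figure D1:**
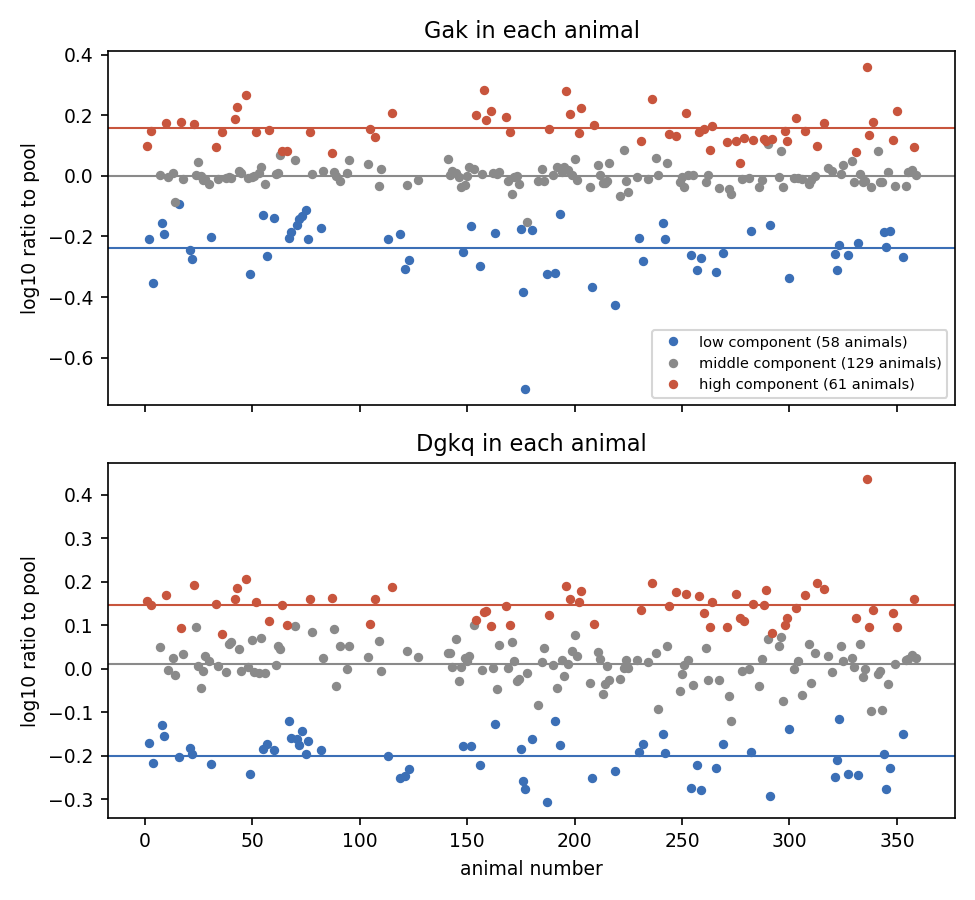
Log10 ratio to the pool of Gak (top) and Dgkq (bottom) against animal number, 1 point per animal. Colours give the low (58 animals), middle (129) and high (61) component, lines give component means, and each band runs through the whole range of animal numbers.

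The levels of the 2 genes went together, which is the value the pair was chosen for. Over all animals but 144 Pearson's r was 0.915 and Spearman's rho was 0.886. Within the low, middle and high component r was 0.417, 0.347 and 0.513 and rho was 0.390, 0.343 and 0.247. The bands were cut from these same levels, and a narrower range lowers r in any case. The drop therefore cannot show how much of the relation lay between the bands. Dgkq on its own also split into 62 lower and 186 upper animals, within which r with Gak was 0.554 and 0.834. The difference of Gak minus Dgkq had an SD of 0.0615 over animals, lower than the SD of either gene alone. Its lowest value, -0.426, came from animal 177. Among 10393 pairs of adjacent measured genes on autosomes the pair had rank 11 by absolute r, and the median absolute r was 0.171. These correlations are descriptions, and all points of 1 animal share an array.

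**Figure D2:**
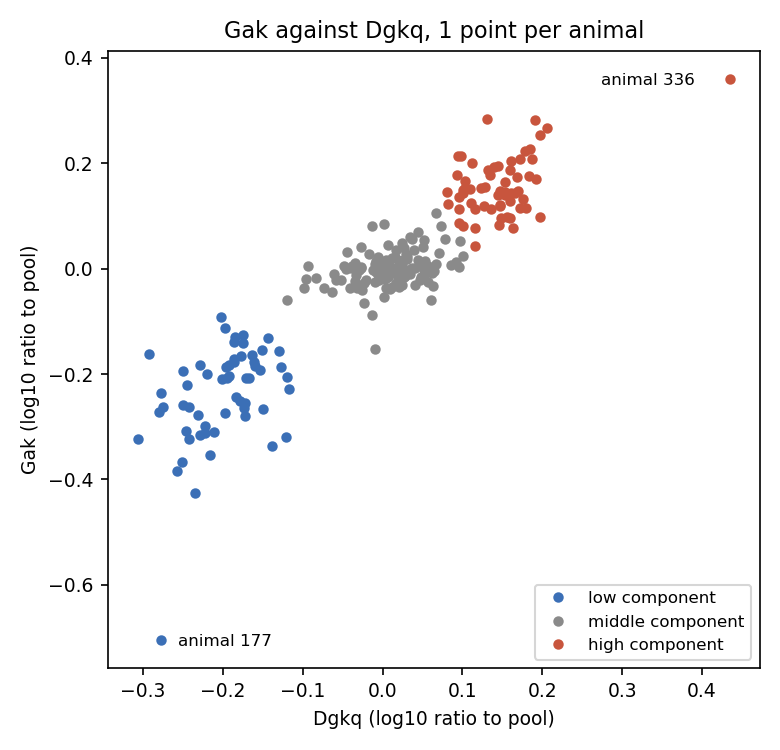
Gak against Dgkq as log10 ratios to the pool, 1 point per animal, coloured by component. The 3 bands lie along a diagonal, with animal 336 alone at the upper right and animal 177 alone at the bottom.

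To ask which other genes went with the pair, every gene was fitted on the level of Gak, and separately of Dgkq, with limma over all animals but 144, with Benjamini-Hochberg adjustment over 11507 genes. A gene was called at an adjusted p under 0.05. The slope is the change in the log10 ratio of a gene per log10 unit of Gak or Dgkq. The fitted ratio is the level predicted at the 95th percentile of Gak or Dgkq over that predicted at the 5th. The share called was 1.25% for Gak (144 genes, 95 or 0.826% with a positive and 49 or 0.426% with a negative slope) and 1.52% for Dgkq (175 genes, 123 or 1.07% and 52 or 0.452%). Without animal 336 these were 111 genes (0.965%) for Gak and 73 genes (0.634%) for Dgkq, so that 1 animal decides much of the Dgkq count.

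The genes nearest to the pair did not move as a block. Of the 20 measured genes nearest to it, 10 on each side, 9 were called with Gak and 8 with Dgkq, beside background shares of 1.25% and 1.52%. Positive slopes were found for Glmn, Crlf2, Gtpbp6 and Pxmp2 and negative slopes for Brdt, Mtf2, Pde6b and Golga3, with both levels, while Pole was called with Gak, also with a negative slope. Genes 1 to 3 places after the pair and the gene just before it were not called.

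Crlf2, the receptor subunit for the cytokine TSLP, lies 4 places after the pair and had the steepest positive slope of the nearby genes. Its log10 ratio was -0.328 in the lowest animal, -0.0162 at the median and 0.207 in the highest. The slope was 0.393 ± 0.0276 (SE) on Gak (limma adjusted p = 8.59e-31) and 0.492 ± 0.0301 on Dgkq (limma adjusted p = 3.86e-38). The fitted ratio was 1.58 across the Gak range. Gtpbp6, a GTP-binding protein 5 places after the pair, had values from -0.141 through -0.000525 to 0.359. Its slope was 0.228 ± 0.0198 on Gak (limma adjusted p = 4.45e-22), a fitted ratio of 1.30.

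Glmn, encoding glomulin, which binds cullin-RING ubiquitin ligases, lies 7 places before the pair and had values from -0.437 through 0.0255 to 0.337. Its slope was 0.279 ± 0.0276 on Gak (limma adjusted p = 1.54e-17), with a fitted ratio of 1.38. Pxmp2, a peroxisomal membrane channel 7 places after the pair, had the smallest positive slope of the called nearby genes, 0.102 ± 0.0200 on Gak (limma adjusted p = 0.000162). These 4 genes were higher in animals with more Gak.

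Mtf2, a Polycomb-associated protein that binds methylated histone H3, lies 3 places before the pair and had the steepest negative slope of the 20 nearby genes. It ran from -0.266 through 0.0123 to 0.257. The slope was -0.357 ± 0.0358 on Gak (limma adjusted p = 3.56e-17), a fitted ratio of 0.662, and -0.455 ± 0.0400 on Dgkq (limma adjusted p = 1.48e-21). Pde6b, 2 places before the pair, encodes a subunit of the rod photoreceptor phosphodiesterase, and C3H/HeJ mice are known to carry its retinal degeneration allele. Its values ran from -0.349 through 0.0240 to 0.358, and the slope was -0.286 ± 0.0288 on Gak (limma adjusted p = 4.05e-17), a fitted ratio of 0.718.

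Brdt, a bromodomain protein best known from the testis, lies 8 places before the pair, with values from -0.247 through 0.0176 to 0.194. Its slope on Gak was -0.249 ± 0.0223 (limma adjusted p = 6.10e-21), a fitted ratio of 0.750. Weaker negative slopes were found for Golga3, a golgin of the Golgi membrane, at -0.0686 ± 0.0158 on Gak (limma adjusted p = 0.00376), and for Pole, the catalytic subunit of DNA polymerase epsilon, at -0.113 ± 0.0254 (limma adjusted p = 0.00238). Pole missed the threshold with Dgkq, at -0.0926 ± 0.0301 (limma adjusted p = 0.0916). Whether its slopes on the 2 levels differ was not tested.

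The gene just before the pair and the first 3 measured genes after it were called with neither level over all animals. Cplx1, the complexin that clamps synaptic vesicle fusion, directly precedes Gak and had values from -0.211 through 0.0209 to 0.159. Its slope was 0.0261 ± 0.0283 on Gak (limma adjusted p = 0.658) and 0.0166 ± 0.0331 on Dgkq (limma adjusted p = 0.883). Idua, the lysosomal iduronidase whose gene overlaps Dgkq on the other strand, had a slope of 0.0124 ± 0.0138 on Gak (limma adjusted p = 0.668) and 0.00392 ± 0.0161 on Dgkq (limma adjusted p = 0.949). Fgfrl1, a receptor that binds fibroblast growth factors without a kinase domain, and Vmn2r10, a vomeronasal receptor of a large family of similar genes, had slopes of -0.0149 ± 0.0198 and 0.00924 ± 0.0115 on Gak. Fitted ratios of these 4 genes across the Gak range lay between 0.983 and 1.03. With the 3 components as a factor, a fit in which 34.0% of all genes were called with Gak and 37.7% with Dgkq, Idua was called with both levels (partial r 0.321 with Gak and 0.246 with Dgkq), as was Vmn2r10 (0.187 and 0.161), and Fgfrl1 was called with Dgkq (0.288). With 5 principal components added to that fit, Idua, Vmn2r10 and Fgfrl1 were called with neither level. With the other member of the pair as a covariate Fgfrl1 was called with both, at a partial r of -0.194 with Gak and 0.191 with Dgkq.

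The remaining nearby genes passed the threshold with neither level over all animals. They were Cdc7, a replication kinase, Tgfbr3, the betaglycan co-receptor, Gfi1, a transcriptional repressor, Evi5, a regulator of Rab GTPases, Rpl5, a ribosomal protein, P2rx2, an ATP-gated channel, and Lrcol1. Gfi1 varied more between animals than Gak, with an SD of 0.178, and its slope on Gak was 0.108 ± 0.0743 (limma adjusted p = 0.447). A wide spread between animals in this stretch was thus not enough for a call. Cdc7 came nearest to the threshold, with a slope of 0.121 ± 0.0393 on Dgkq (limma adjusted p = 0.0916). It passed with Dgkq in the higher-numbered animals (limma adjusted p = 0.0304) and with 5 principal components as covariates (0.0389). Pole also passed in the last fit (limma adjusted p = 0.0377). The relation of Cdc7 to Dgkq leaned on few animals: r was 0.192, rho was 0.113, and r without animals 336 and 187 was 0.0772. In the lower-numbered animals r was 0.0576, and in the higher-numbered ones, which include animal 336, it was 0.295. The highest log10 ratio of Cdc7 was 0.693, against an SD of 0.0818. With the 3 components as a factor Cdc7 was called with both levels, P2rx2 with Gak and Rpl5 with Dgkq. In that fit 34.0% of all genes were called with Gak and 37.7% with Dgkq. With 5 principal components added to it, Cdc7 stayed called with Dgkq (partial r 0.538) and P2rx2 with Gak (0.312). Cdc7 with Gak and Rpl5 with Dgkq were then not called. Within the low, middle and high component r of Cdc7 with Dgkq was 0.451, 0.212 and 0.619. For P2rx2 r with Gak was 0.519, 0.0439 and 0.0993, so its relation lay mostly in the low component. Over all animals P2rx2 had r = 0.152 and rho = -0.0689 with Gak, and r = -0.00367 without animals 177 and 219. Evi5 is the one nearby gene with 2 probes, and neither was called.

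**Figure D3:**
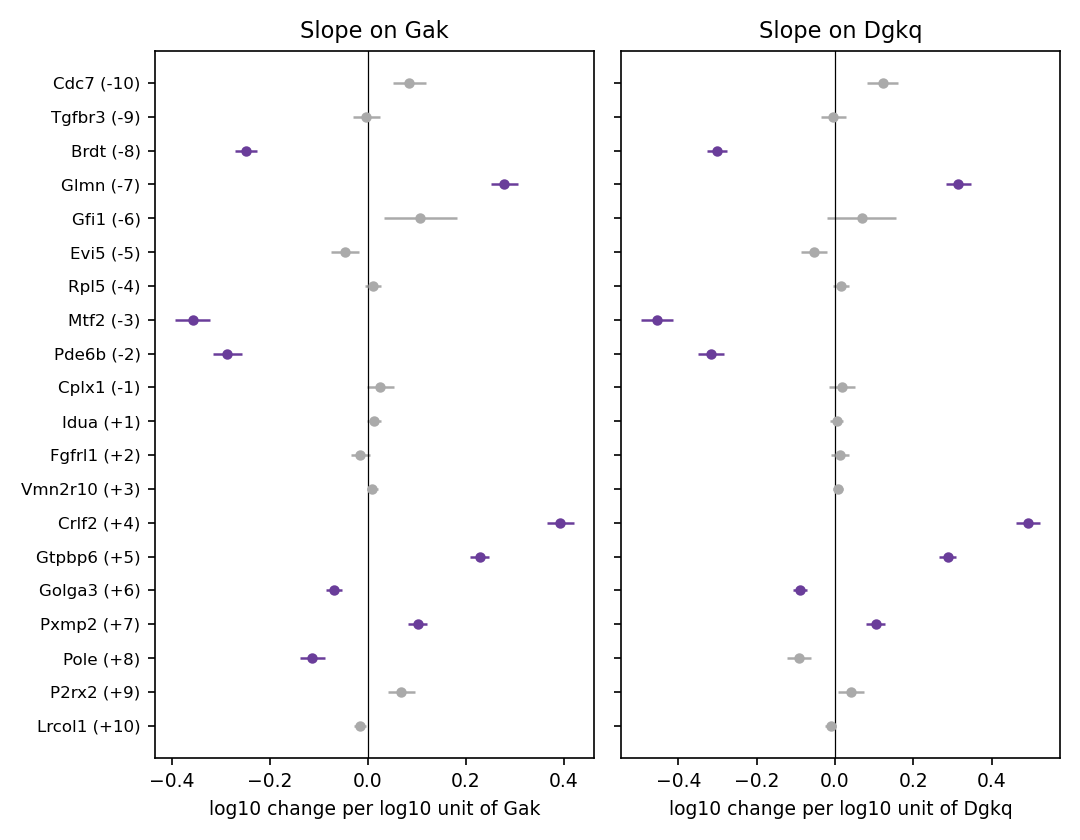
Slope of the 20 nearest measured genes on the Gak level (left) and the Dgkq level (right), in log10 units per log10 unit, with bars of 1 SE over all animals but 144. Genes run in chromosome order with their place from the pair, purple marks an adjusted p under 0.05, and called genes of both signs stand among genes near 0.

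To see whether the calls rested on one stretch of the numbering, the fit was repeated in the 124 animals with numbers up to 192 and in the 124 animals from number 193 on. Brdt, Glmn, Mtf2, Pde6b, Crlf2 and Gtpbp6 were called with both levels in each of these sets. With Gak, Golga3 missed the threshold in both sets (limma adjusted p = 0.135 and 0.167), Pole in the lower-numbered animals (0.374) and Pxmp2 in the higher-numbered ones (0.168). With Dgkq, Golga3 missed it in the higher-numbered animals (0.0844) and Pxmp2 in both sets (0.111 and 0.128). The direction of these 3 genes was the same in both sets.

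Along chromosome 5 the calls extended far beyond the nearest genes. Of the 651 other measured genes there, 64 (9.83%) were called with Gak and 63 (9.68%) with Dgkq, and 53 of these were shared, which is 53 of 64 and 53 of 63. Both fits use the same animals and 2 levels that go together. On the other autosomes 65 of 9759 genes (0.666%) were called with Gak and 99 (1.01%) with Dgkq. Without animal 336 these were 35 (0.359%) and 11 (0.113%), against 65 (9.98%) and 54 (8.29%) on chromosome 5. Of the chromosome 5 genes called with Gak, 34 had a positive and 30 a negative slope.

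The share called with Gak was 40% of the 10 genes nearest before the pair, 60% at places 11 to 25, 20% at 26 to 50, 20% at 51 to 100 and 7.29% of the 247 genes beyond. After the pair it was 50% of the nearest 10 genes, 0 of 15 at places 11 to 25, 8% at 26 to 50, 8% at 51 to 100 and 3.43% of the 204 genes beyond. Beyond the nearest 10 genes, calls were therefore denser on the side of lower coordinates. Among the 15 genes with none called by limma, 1 had an unadjusted p under 0.05 with Gak, and none was called on ranks.

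**Figure D4:**
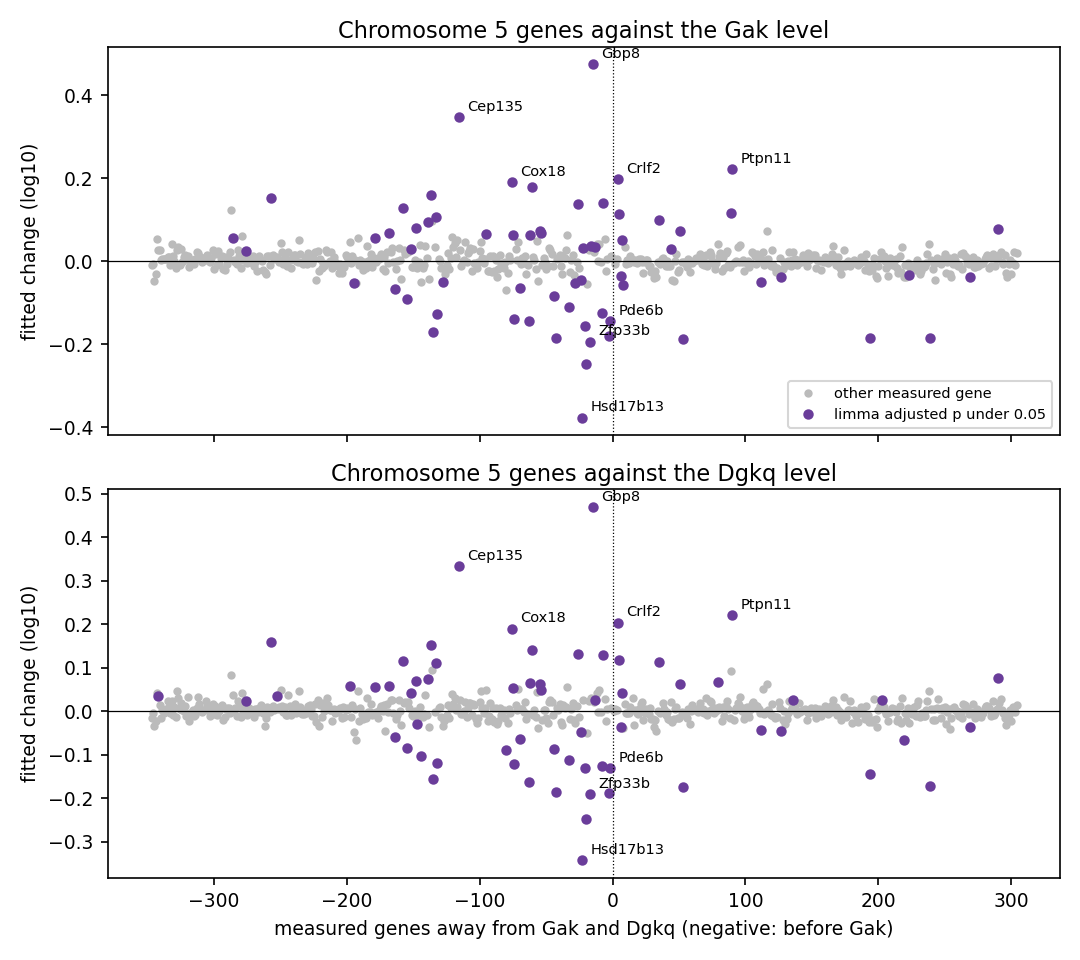
Fitted change of each measured chromosome 5 gene, as the log10 of its fitted ratio across the 5th to 95th percentile of Gak (top) or Dgkq (bottom), against its place from the pair in measured genes. Purple points have an adjusted p under 0.05 and include genes of both signs. They are densest within 25 places before the pair and 10 places after it, with none at places 11 to 25 after it.

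Likeness to Gak was ranked by absolute Pearson's r over the same animals. After Dgkq came Zfp33b, Hsd17b13, Gbp8, Ptpn11, Synpo2l, Cep135, Crlf2, Cox18 and Dmp1, with r from -0.784 for Zfp33b to -0.632 for Dmp1 among the negative ones and from 0.637 for Cox18 to 0.727 for Gbp8 among the positive ones. The two-sided permutation p was 1e-05 for each of these 9 genes, the smallest that 100000 permutations of animals can give. The 9 genes were picked by their r on the same values, and this p does not allow for that choice. Of the 20 genes most like Gak, 17 lie on chromosome 5. The list of 10 for Dgkq shared 9 names with it, each list also holding the other member of the pair. As for the pair itself, these values hold the steps between the bands: with the 3 components as a factor, Zfp33b and Hsd17b13 were called with Gak (limma adjusted p = 0.000133 and 0.0133), and the other 7 of the 9 genes were not. Within the low, middle and high component r with Gak was -0.192, -0.388 and -0.396 for Zfp33b, -0.0159, 0.230 and 0.0901 for Gbp8 and 0.0880, -0.253 and 0.125 for Crlf2.

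Zfp33b, a zinc finger gene 17 places before the pair, ran from -0.334 through 0.0154 to 0.198 and had r = -0.784 and rho = -0.837 with Gak. Its slope was -0.385 ± 0.0195 (limma adjusted p = 2.85e-49). Hsd17b13, an enzyme of lipid droplets in liver, lies 23 places before the pair and ran from -0.339 through 0.0217 to 0.406. Its fitted ratio across the Gak range was 0.420, with a slope of -0.749 ± 0.0382 (limma adjusted p = 7.65e-49). Dmp1, a matrix protein of bone and dentin 20 places before the pair, had a slope of -0.494 ± 0.0384. These 3 genes were lower in animals with more Gak.

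Gbp8, an interferon-inducible guanylate-binding protein 15 places before the pair, ran from -0.722 through -0.220 to 0.586. With a slope of 0.944 ± 0.0566 (limma adjusted p = 4.57e-39) and a fitted ratio of 2.98, it changed almost as much as Gak itself. Gbp8 belongs to a family of similar neighbouring genes, and probe sequences were not used here, so signal from its relatives cannot be told apart. Ptpn11, the phosphatase SHP2, lies 90 places after the pair, with a slope of 0.443 ± 0.0274 and a fitted ratio of 1.67. Cep135, a centriole protein, lies 116 places before it, with a slope of 0.691 ± 0.0456 and a fitted ratio of 2.23. Cox18, which helps to assemble cytochrome oxidase, lies 76 places before it, with a slope of 0.379 ± 0.0292.

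Synpo2l, an actin-associated protein of muscle, was the one gene of these that the annotation places on another chromosome, 14. It ran from -0.417 through 0.0244 to 0.263, and its slope was -0.737 ± 0.0469 on Gak (limma adjusted p = 8.04e-36), a fitted ratio of 0.426. Abhd1, a further chromosome 5 gene of wide spread, lies 257 places before the pair and had a smaller slope of 0.302 ± 0.0684 on Gak (limma adjusted p = 0.00269). It missed the threshold in the lower-numbered animals (limma adjusted p = 0.539).

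Some of the probes most like the pair carried no gene symbol, and they are named by number because no table given pairs them with a gene. Tested as single probes, 1.32% of all probes were called with Gak and 1.51% with Dgkq, and of 9609 probes without a symbol 135 (1.4%) and 154 (1.6%) were called. Probe 10024416644 was second only to that of the other member of the pair, with a slope of 1.11 ± 0.0385 on Gak (limma adjusted p = 3.50e-77) and 1.27 ± 0.0474 on Dgkq (limma adjusted p = 3.93e-71). It varied more than Gak, with an SD of 0.191, and was named after its values were seen.

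Known partners of the 2 proteins were read against the share of all genes called. Of 32 genes of clathrin coats, adaptors and uncoating, 22 were measured and 1 was called with each level, beside 1.25% of all genes for Gak and 1.52% for Dgkq. That gene was Bmp2k, a kinase of the same family as Gak, which itself lies on chromosome 5, 43 places before the pair. Its slope was -0.366 ± 0.0466 on Gak (limma adjusted p = 4.34e-11). The median slope on Gak was -0.00708 over the 22 genes and 0.000962 over all genes. On ranks 2 of the 22 were called with Gak and 1 with Dgkq, where 361 and 102 of all 11507 genes were called.

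Of 31 genes of diacylglycerol kinases and diacylglycerol turnover, 21 were measured and none was called by limma with either level, beside 1.25% of all genes for Gak and 1.52% for Dgkq. On ranks none was called with either level, where 361 of all 11507 genes were called with Gak and 102 with Dgkq. An unadjusted p under 0.05 was found for 5 with Gak and 3 with Dgkq. The median slope on Dgkq was 0.00572 over these 21 genes and 0.00207 over all genes. Of all genes, 17.6% had an unadjusted p under 0.05 with Gak and 13.1% with Dgkq.

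Markers of cell types and regions were read beside the pair. Of 85 markers in 13 lists, 74 were measured; limma called 1 with Gak and none with Dgkq, beside 1.25% and 1.52% of all genes. An unadjusted p under 0.05 was found for 10 with Gak and 6 with Dgkq, beside 17.6% and 13.1% of all genes. On ranks 2 were called with Gak and none with Dgkq, where 361 and 102 of all 11507 genes were called. The one called by limma was Aqp4, the water channel of astrocytes, with a slope of 0.165 ± 0.0414 (limma adjusted p = 0.0119). It missed the threshold with the array of animal 144 kept (limma adjusted p = 0.104) and in the lower-numbered and the higher-numbered animals (0.0663 and 0.383). With Dgkq, Aqp4 was called in other fits, with a negative slope. Partial r was -0.347 with Gak as a covariate (limma adjusted p = 2.49e-06) and -0.461 with the 3 components as a factor (1.48e-12). Those fits called 15.3% and 37.7% of all genes with Dgkq, and the marker lists were not counted in them. The 6 astrocyte markers had a median slope of 0.0202 on Gak, and 5 of them were not called; their part in the results was not tested. Per array, the median over the 5 measured neuron markers lay between -0.428 and 0.0773, and that over the 6 pituitary markers between -1.15 and 0.815. The median over the 6 lung markers lay between -1.44 and -0.937, below the pool on every array used. Why the pool held more of the lung markers than any of these brains was not tested.

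With the 3 components as a factor, which removes the steps between bands, 3912 genes (34.0%) were called with Gak and 4341 (37.7%) with Dgkq. Adding the first 5 principal components of genes on the other autosomes left 327 (2.84%) for Gak and 4893 (42.5%) for Dgkq. With the other member of the pair as a covariate in place of the components, 2127 genes (18.5%) were called with Gak and 1759 (15.3%) with Dgkq. The bands held 84.5% of the variance of Gak and 87.8% of that of Dgkq. They were made from these same levels, so a large share follows from how they were made. The principal components, made from other genes, held 3.63% and 1.68% alone, and 14.8% and 13.8% of the variance left within the bands. Within the bands the level of Dgkq went with many genes across the genome in both fits, and that of Gak in the fit without principal components. Animal 336, the highest for Dgkq, lies in the high component, and neither fit was repeated without it. In the fit without components, leaving it out took the Dgkq count on the other autosomes from 99 (1.01%) to 11 (0.113%). How much of the counts within the bands is due to animal 336 was not tested. The direction of several chromosome 5 genes turned with the components as a factor: Brdt had a partial r of 0.192 with Gak and Golga3 0.273, against -0.580 and -0.267 over all animals. With the principal components added, these were 0.0808 and 0.123, and neither was called (limma adjusted p = 0.526 and 0.298). With Dgkq both were called in that last fit, at 0.198 and 0.165 (limma adjusted p = 0.00639 and 0.0268).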

How the data were processed

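Brain RNA of 249 animals was measured on 2-colour arrays. Each deposited value is a log10 ratio, animal (Cy3) over pool (Cy5), per the labels for the dyes; scale and direction were read from the values, where the upper component of the Y-linked Eif2s3y and Kdm5d lay at 0.284 and 0.302, near the log10 of 2 (0.301). Array centring was done before deposit by a method that is not given in the sources used here. Values ended at -2 and 2, 0.710% were missing, and 6 pairs of arrays correlated under -0.3 (lowest -0.353); the dye order in the labels is the same for all arrays. Intensities were not used here.

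Probes with 1 symbol and values on at least 90% of arrays (13444) were averaged per gene, and a missing value took the mean of its probe. Neither Gak nor Dgkq had gaps. GRCm38.p6 gave symbols and gene order, matching 12652 probes by gene number and 214 by symbol, with 779 not matched. Slopes were fitted with limma 3.58.1 in R 4.3.3 (lmFit, eBayes). The fit was also run on simulated, independent normal genes. Measured genes are correlated with each other, so that run does not bear on the counts given here. Components came from scikit-learn 1.9.0; a gene counted as clustered where 2 components beat 1 by over 10 in BIC and lay 3 SD apart, which held for Dgkq (3.31 SD) and missed narrowly for Gak (2.97 SD), so both are described by slopes. The named genes, 31 with 2 levels and hence 62 relations, were the 20 nearest, the 10 most alike to each member, called list members (at most 3 a list) and Abhd1. The members and lists were chosen with earlier results of these data known. Animals are the replicates, 1 array each, and their number limits the precision. Alternatives are listed in the closing section.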

Additional observations from a re-analysis of the deposited data

How the results depend on the processing

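Labels with 1 group and 1 array per animal set the limits: no paired analysis was possible because there is no second group, each member has 1 probe, so taking single probes as its level changes nothing, and signal over background is unknown. The count of genes called with Gak (144) was 552 with animal 144 kept, 361 on ranks, 76 in the lower-numbered animals and 2127 with Dgkq as a covariate. Chosen after the data were seen, the 3 components as a factor gave 3912, and these with 5 principal components gave 327. The count with Dgkq (175) was 113 with animal 144 kept, 102 on ranks, 738 with 5 principal components, 81 without the 12 arrays of largest spread, 45 in the lower-numbered and 404 in the higher-numbered animals, and 1759 with Gak as a covariate. Added later, it was 4341 with components, 4893 with components and principal components, 73 without animal 336 and 71 without animals 336 and 187. Nearby genes called were 5 of 20 with the partner as a covariate for Gak and for Dgkq, where 18.5% and 15.3% of all genes were called. They were 3 for Gak with components and principal components, where 2.84% of all genes were called. All other settings kept both counts within 1.5 times, but with components the genes behind them changed. For Gak, Mtf2, Pde6b, Crlf2, Gtpbp6 and Pxmp2 then lost the call, Brdt and Golga3 reversed, and Cdc7, Idua, Vmn2r10 and P2rx2 gained it. That fit called 34.0% of all genes with Gak and 37.7% with Dgkq. With 5 principal components added to it, P2rx2 kept the gained call with Gak, and Cdc7, Idua and Vmn2r10 did not. The correlation of Gak with Dgkq was 0.889 with animal 144 kept, 0.886 on ranks, 0.391 with components and 0.335 with components and principal components.

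Of 928 single-gene values under alternatives, 478 kept the call and its direction, 61 lost the call in the same direction, 18 gained one in the same direction, and 283 were called in neither fit and kept their direction. Another 55 were called in neither fit and changed sign, 31 of them with neither the partner nor the components in the fit, at absolute r up to 0.16. The other 33 changed sign with a call in at least 1 of the fits, all with the partner or the components in the fit. With Dgkq as a covariate, partial r with Gak was 0.000629 for Mtf2 and 0.0149 for Golga3. With Gak as a covariate, partial r with Dgkq was -0.0337 for Pxmp2 and -0.347 for Aqp4. With components, partial r with Gak was 0.192 for Brdt, -0.0110 for Crlf2, 0.273 for Golga3, -0.100 for Ptpn11 and -0.0327 for Abhd1. With Dgkq it was 0.178 for Brdt, 0.0406 for Pde6b, 0.234 for Golga3, -0.120 for Pxmp2, 0.0802 for Hsd17b13, -0.0610 for Ptpn11, 0.0635 for Synpo2l and -0.461 for Aqp4. With components and principal components, partial r with Gak was 0.0808 for Brdt, 0.123 for Golga3, -0.0340 for Gbp8, -0.0483 for Ptpn11, 0.0114 for Dmp1, -0.110 for Aqp4, 0.00152 for Bmp2k and -0.00599 for Abhd1. With Dgkq it was 0.198 for Brdt, -0.151 for Gfi1, 0.165 for Golga3, -0.0195 for Pxmp2, 0.132 for Hsd17b13, -0.0560 for Ptpn11, 0.0174 for Synpo2l and -0.553 for Aqp4. The cause was not tested.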

Other observations

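Beyond Synpo2l, the genes with the largest absolute r to Gak that were not placed on chromosome 5 were listed under the symbols prCAD, FMN2 and ZER1, which the annotation did not place, then Olfr643 on chromosome 7 and Rgs21 on chromosome 1. The slope on Gak was -0.570 ± 0.0472 for prCAD (limma adjusted p = 1.15e-23) and 0.461 ± 0.0388 for FMN2 (limma adjusted p = 4.06e-23). For Olfr643, an olfactory receptor, it was 0.143 ± 0.0239 (limma adjusted p = 2.21e-06). These genes were named after their values were seen.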
